A study of Mus musculus with 8 samples.

Results

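The 10 genes described here, S100a8, S100a9, Camp, Ngp, Ltf, Retnlg, Mpo, Elane, Csf3r and Ly6g, encode granule, cytosolic and surface proteins of neutrophils. They were chosen by name, with earlier results of these data known, and are 10 of the 25965 genes measured. All 10 passed the filter on low values, Mpo, Elane and Ly6g only through the libraries made after birth. RNA of whole mouse lung was sequenced in 4 groups of 2 libraries, 8 in all. The sources used here do not say how many animals each library holds, so the p-values below measure only the spread between these libraries. The groups were Wfdc2 +/+ and Wfdc2 GFP/GFP lungs at E18.5, in embryonic days and shortly before birth, and the same genotypes at P1.5, in postnatal days. Wfdc2 encodes a secreted protein of the airway epithelium. In the GFP allele a reporter replaces part of the first and all of the second exon in every cell of the animal, and the drug-resistance marker was removed by crossing to a CAG-Cre line. The study asked how the lung without Wfdc2 differs around birth, and the 10 genes were followed across birth in each genotype.

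Neutrophils are short-lived phagocytes that develop in the bone marrow, and before birth in the fetal liver, and reach the lung with the blood. Their granule proteins are made in waves. Mpo and Elane, of the primary granules, are transcribed in promyelocytes, and Ltf, Camp and Ngp, of the secondary granules, in myelocytes and metamyelocytes. Mature cells keep abundant transcripts of S100a8, S100a9, Csf3r and Retnlg, while transcription of the primary granule genes has ceased. C/EBP family members and PU.1 are the transcription factors best known for driving these genes.

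Because the calprotectin and secondary granule genes rose together in the data below, the sequence just before the transcription start is shown for those 5 genes, with Elane beside them as a primary granule gene that did not pass the test. Each run is the 150 bases upstream of the RefSeq start, read 5′ to 3′ on the gene's strand from build GRCm38.p6. Capitals mark matches to the C/EBP letters TTNNGNAA or the PU.1 letters GAGGAA, both searched on both strands, and to TATAAA on the gene's strand.
S100a8 (chr3:90668921-90669070, + strand): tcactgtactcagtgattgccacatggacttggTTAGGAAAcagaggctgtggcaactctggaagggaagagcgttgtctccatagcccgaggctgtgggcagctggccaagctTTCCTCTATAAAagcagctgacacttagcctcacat
S100a9 (chr3:90695722-90695871, - strand): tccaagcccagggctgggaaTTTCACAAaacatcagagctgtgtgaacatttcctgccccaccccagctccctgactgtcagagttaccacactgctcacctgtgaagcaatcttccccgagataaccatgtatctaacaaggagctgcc
Camp (chr9:109849457-109849606, - strand): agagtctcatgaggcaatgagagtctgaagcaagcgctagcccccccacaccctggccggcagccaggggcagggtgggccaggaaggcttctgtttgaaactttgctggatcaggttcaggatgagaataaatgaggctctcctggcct
Ngp (chr9:110419658-110419807, + strand): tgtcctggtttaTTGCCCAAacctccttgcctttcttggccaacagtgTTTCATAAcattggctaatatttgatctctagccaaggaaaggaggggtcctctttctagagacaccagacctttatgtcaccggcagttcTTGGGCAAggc
Ltf (chr9:111019142-111019291, + strand): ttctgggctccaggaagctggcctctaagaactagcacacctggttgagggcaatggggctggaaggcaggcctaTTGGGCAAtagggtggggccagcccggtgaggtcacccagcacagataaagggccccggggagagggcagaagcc
Elane (chr10:79886162-79886311, + strand): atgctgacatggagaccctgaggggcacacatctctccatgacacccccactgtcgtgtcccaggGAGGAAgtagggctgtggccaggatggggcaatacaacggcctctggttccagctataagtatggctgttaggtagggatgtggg
Over the 250 bases before the start, the C/EBP letters were found in 6 of the 10 genes (S100a8, S100a9, Ly6g, Ngp, Ltf and Retnlg) and in 36.8% of all 32851 RefSeq promoters of the mouse. The PU.1 letters were found in 6 of 10 (S100a8, Csf3r, Ly6g, Mpo, Elane and Ltf) against 23.3% of all promoters, and TATAAA in 2 of 10 (S100a8 and Ly6g) against 7.59%. Ngp held 3 C/EBP matches within its 150 bases and Camp none, although both are secondary granule genes. The RefSeq start of Ngp lies 58 bases inside the deposited gene interval, and the match nearest that start lies inside it too. The Camp run lies within the GENCODE gene, which extends to chr9:109849617. The pair was not compared from other annotated starts. In S100a8 the PU.1 match and TATAAA lie next to each other. These are matches of letters and not measured binding.

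S100a8 and S100a9 are neighbors on chromosome 3, 22.6 kb apart, at chr3:90669071-90670034 and chr3:90692632-90695721 in mm10. The 3 secondary granule genes lie on chromosome 9, Camp at chr9:109847375-109849456, Ngp at chr9:110419750-110423010 and Ltf at chr9:111019292-111042766, with 570.3 kb between Camp and Ngp and 596.3 kb between Ngp and Ltf. The other 5 genes are spread over 5 chromosomes, with Csf3r on chromosome 4, Elane on 10, Mpo on 11, Ly6g on 15 and Retnlg on 16. Ly6g belongs to a family of similar genes on chromosome 15, so its few reads are uncertain. Its deposited interval, chr15:75156693-75158739, leaves out both ends of the GENCODE gene, chr15:75155240-75159126. Reads on those ends are not in its counts.

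The deposited values are log2 RPKM, from which whole reads per gene and the RPM, reads scaled to the library total, were recovered. Libraries held 19457646 to 37209332 reads, with 29246202 to 37209332 at E18.5 and 19457646 to 29257003 at P1.5, so that 3 reads, taken as the detection limit, equal 0.0806 to 0.154 RPM. Wfdc2 itself had 8038 to 32845 reads in the +/+ libraries and 0 to 12 in the GFP/GFP libraries. Epithelial markers were present in every library, with a summed level of 7704 RPM or more. E18.5 GFP/GFP replicate 1 stood apart by its low epithelial (7704 RPM) and erythroid (1552 RPM) sums. At P1.5 the endothelial and mesenchymal sum was 602 and 2451 RPM in +/+ replicates 1 and 2, and 874 and 1338 RPM in GFP/GFP. P1.5 +/+ replicate 2, with the highest of these, had the lowest epithelial (31518 RPM) and erythroid (6728 RPM) sums of the P1.5 libraries. In all 4 groups replicate 1 carried Xist (4121 to 90980 reads) and replicate 2 carried Ddx3y (972 to 2175 reads), so the libraries of a group came from different animals, and the sex of the animals and the replicate number cannot be told apart.

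Together the 10 genes gave 88.3 and 85.9 RPM in E18.5 +/+ lungs (replicates 1 and 2), 54.2 and 60.6 RPM in E18.5 GFP/GFP lungs, 1865 and 659 RPM in P1.5 +/+ lungs, and 1451 and 915 RPM in P1.5 GFP/GFP lungs. Every P1.5 library was above every E18.5 library, in both genotypes. In share of all reads this was 0.00542% to 0.00883% before birth and 0.0659% to 0.186% after. S100a8 and S100a9 supplied 63.7% to 82.2% of the reads of the 10 genes, so the sum mainly describes that pair. In whole-lung RNA, more neutrophils and more RNA per neutrophil cannot be told apart.

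**Figure D1:**
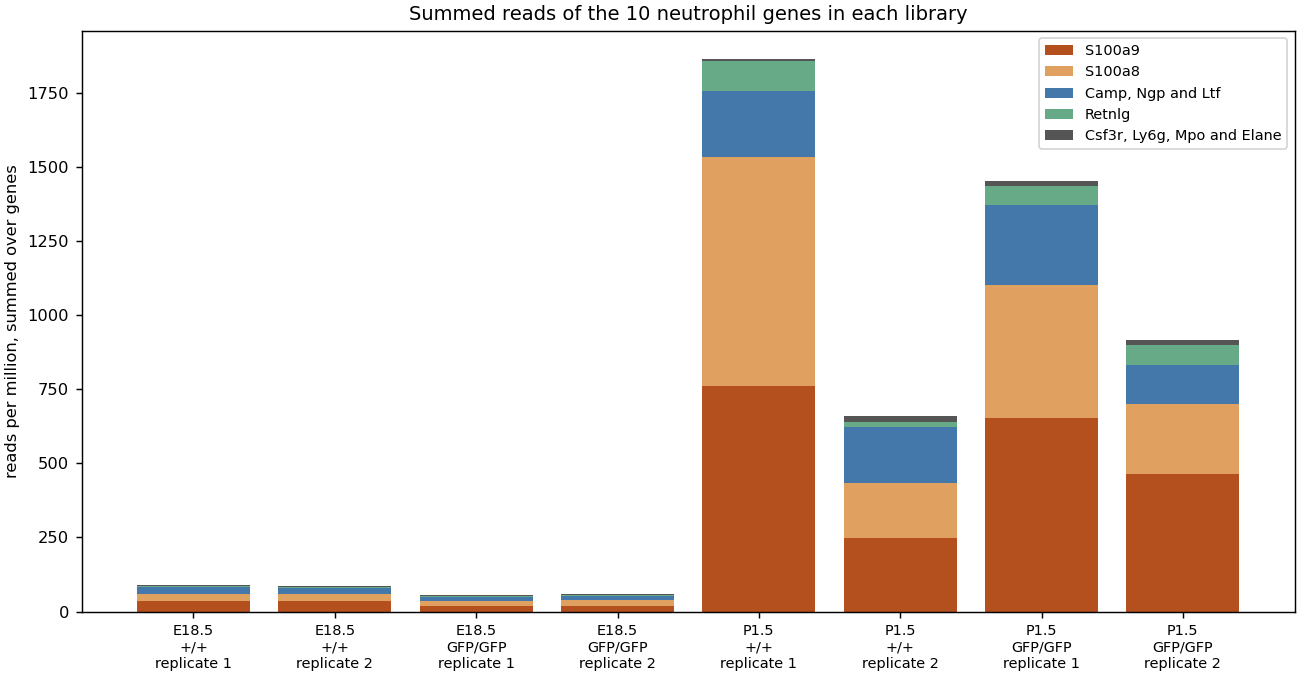
RPM summed over the 10 neutrophil genes, 1 bar per library, stacked by gene. The 4 libraries at E18.5 reach at most 88.3 RPM and the 4 at P1.5 at least 659 RPM, and the bars consist largely of S100a8 and S100a9.

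The primary granule genes had few reads, 0 to 95 per library for Mpo and 0 to 9 for Elane. Mpo, the peroxidase that makes hypochlorous acid, had 0 and 8 reads in E18.5 +/+ lungs, 19 and 15 in E18.5 GFP/GFP lungs, 37 and 15 in P1.5 +/+ lungs, and 95 and 23 in P1.5 GFP/GFP lungs. The E18.5 and P1.5 libraries did not overlap within either genotype on the RPM scale. Elane, neutrophil elastase, had 1 and 0 reads in E18.5 +/+ lungs, 0 and 5 in E18.5 GFP/GFP lungs, 9 and 0 in P1.5 +/+ lungs, and 7 and 3 in P1.5 GFP/GFP lungs, so that stages overlapped in both genotypes. Pooled over the libraries of a group, the ratio of P1.5 to E18.5 for Mpo was 10.4 in +/+ (95% exact interval 4.89 to 25.3) and 4.40 in GFP/GFP (2.98 to 6.65). For Elane it was 14.3 in +/+ (1.99 to 629) and 2.54 in GFP/GFP (0.790 to 9.45). These intervals cover counting error only. In the fit over all genes neither gene passed in any comparison. The log2 fold change of Mpo across birth, averaged over genotypes, was 2.81 (SE 0.81, adjusted p = 0.0635), and that of Elane 1.86 (SE 0.86, adjusted p = 0.150).

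The secondary granule genes were measured well and rose across birth. Ltf encodes lactoferrin, an iron-binding protein. It stood at 11.5 and 8.79 RPM in E18.5 +/+ lungs, 5.54 and 6.46 RPM in E18.5 GFP/GFP lungs, 51.6 and 86.5 RPM in P1.5 +/+ lungs, and 110.4 and 53.0 RPM in P1.5 GFP/GFP lungs. Camp, the precursor of the cathelicidin antimicrobial peptide, stood at 1.77 and 1.67 RPM in E18.5 +/+ lungs, 2.45 and 1.33 RPM in E18.5 GFP/GFP lungs, 102 and 34.3 RPM in P1.5 +/+ lungs, and 79.8 and 31.1 RPM in P1.5 GFP/GFP lungs. Ngp, which encodes a cystatin-related granule protein, stood at 7.70 and 7.19 RPM in E18.5 +/+ lungs, 7.63 and 5.03 RPM in E18.5 GFP/GFP lungs, 67.3 and 68.4 RPM in P1.5 +/+ lungs, and 77.4 and 44.5 RPM in P1.5 GFP/GFP lungs. For all 3 genes the lowest P1.5 library lay above the highest E18.5 library. The P1.5 +/+ libraries differed from each other for Camp, with replicate 1 high, and for Ltf, with replicate 2 high, but hardly for Ngp.

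Averaged over genotypes, Camp rose by a log2 fold change of 4.95 (SE 0.44, adjusted p = 0.00616), which is 30.8-fold. Ngp rose by 3.22 (SE 0.26, adjusted p = 0.00616), or 9.29-fold, and Ltf by 3.21 (SE 0.32, adjusted p = 0.00745), or 9.23-fold. Set per kilobase of exon, the level of Ngp was above that of Camp in 4 of 4 libraries at E18.5 and below it in 4 of 4 at P1.5. The group means on that scale went from 6.11 RPM per kb for Ngp and 2.88 for Camp in E18.5 +/+ lungs to 55.7 and 114 at P1.5. In P1.5 +/+ replicate 2 the levels of the pair were nearly equal, 56.2 and 57.4 RPM per kb, and whether the rises of the pair differ was not tested.

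Retnlg encodes resistin-like gamma, a secreted protein of mature neutrophils. It stood at 3.51 and 4.14 RPM in E18.5 +/+ lungs, 0.968 and 2.39 RPM in E18.5 GFP/GFP lungs, 102 and 17.2 RPM in P1.5 +/+ lungs, and 64.2 and 70.2 RPM in P1.5 GFP/GFP lungs. The stages did not overlap, and the 2 P1.5 +/+ libraries lay on either side of both P1.5 GFP/GFP libraries. Its rise averaged over genotypes was a log2 fold change of 4.46 (SE 0.55, adjusted p = 0.0133), or 22.0-fold.

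S100a8 and S100a9 encode the subunits of calprotectin, a calcium- and metal-binding protein that fills the neutrophil cytosol and is also made by monocytes. S100a8 stood at 24.6 and 24.99 RPM in E18.5 +/+ lungs, 16.0 and 20.8 RPM in E18.5 GFP/GFP lungs, 771 and 184 RPM in P1.5 +/+ lungs, and 451 and 238 RPM in P1.5 GFP/GFP lungs. S100a9 stood at 36.0 and 35.2 RPM in E18.5 +/+ lungs, 18.52 and 19.7 RPM in E18.5 GFP/GFP lungs, 762 and 249 RPM in P1.5 +/+ lungs, and 651 and 464 RPM in P1.5 GFP/GFP lungs. Both genes were higher in every P1.5 library than in any E18.5 library, and P1.5 +/+ replicate 1 was the highest of the 8 for each. Averaged over genotypes, S100a8 rose by a log2 fold change of 4.05 (SE 0.46, adjusted p = 0.0109), or 16.5-fold, and S100a9 by 4.23 (SE 0.36, adjusted p = 0.00616), or 18.8-fold. Per kilobase of exon these were the most abundant of the 10 genes in all 4 groups, with S100a9 above S100a8 in 8 of 8 libraries.

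The surface genes were low. Csf3r, the receptor for the growth factor G-CSF, stood at 3.11 and 3.59 RPM in E18.5 +/+ lungs, 2.53 and 4.14 RPM in E18.5 GFP/GFP lungs, 5.80 and 17.7 RPM in P1.5 +/+ lungs, and 12.2 and 12.6 RPM in P1.5 GFP/GFP lungs. The stages did not overlap, although P1.5 +/+ replicate 1 was close to the E18.5 libraries. Its log2 fold change averaged over genotypes was 1.77 (SE 0.40), or 3.41-fold, with an adjusted p of 0.0496 just under the threshold. Ly6g, the surface antigen used to sort mouse neutrophils, had 2 and 0 reads in E18.5 +/+ lungs, 3 and 0 in E18.5 GFP/GFP lungs, 4 and 19 in P1.5 +/+ lungs, and 0 and 25 in P1.5 GFP/GFP lungs. The reads after birth were thus mainly those of replicate 2 in each genotype. The pooled ratio of P1.5 to E18.5 was 18.3 in +/+ (95% exact interval 4.53 to 160) and 10.56 in GFP/GFP (3.22 to 54.7), and the fit gave a log2 fold change of 2.62 (SE 1.004, adjusted p = 0.0999).

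**Figure D2:**
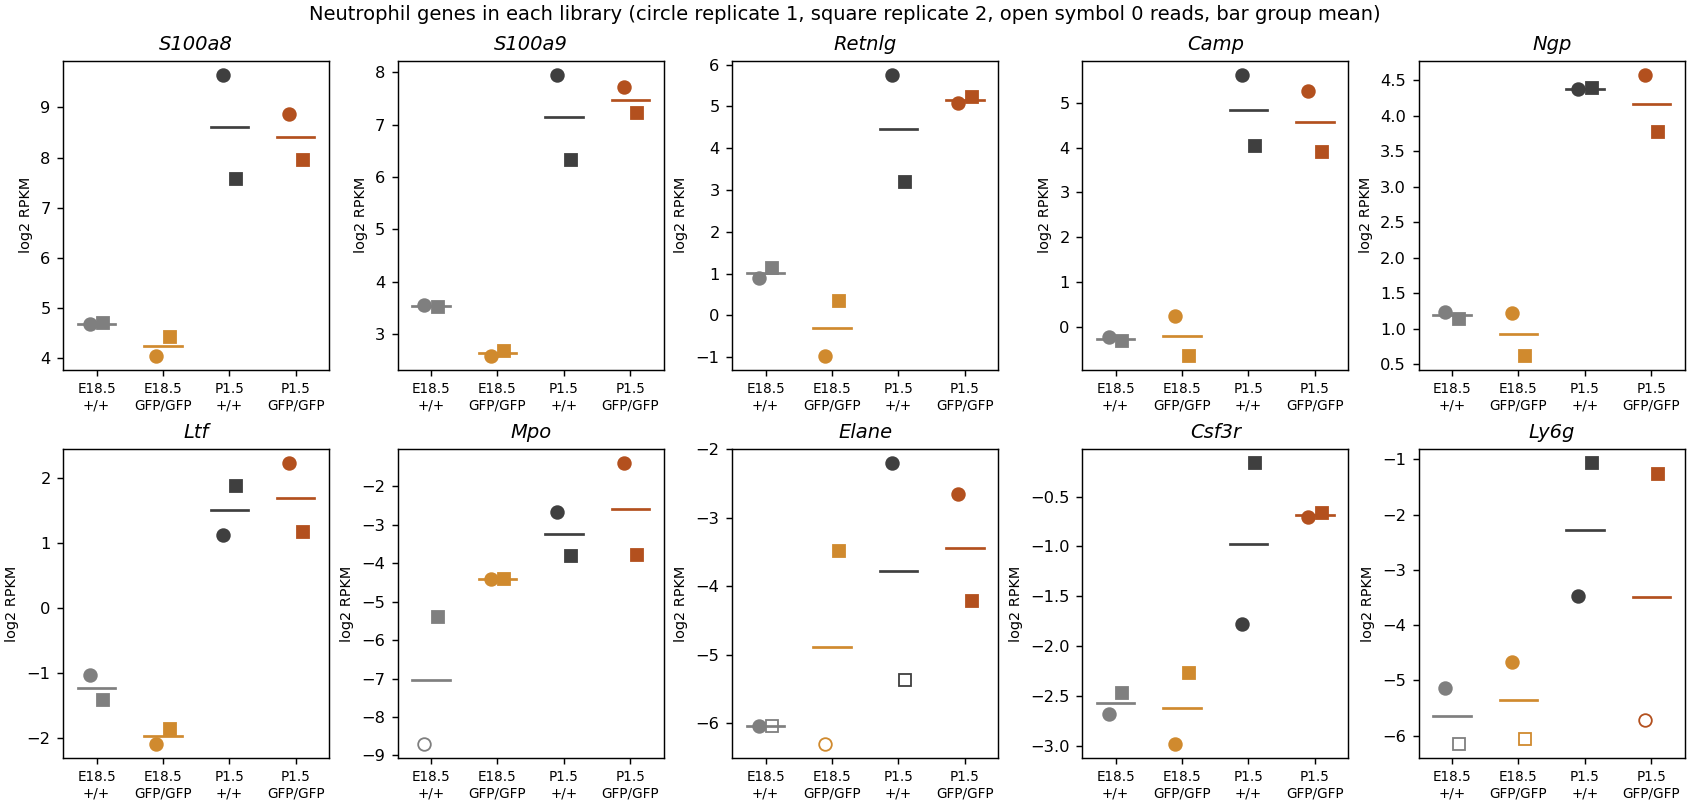
Log2 RPKM of the 10 genes as deposited, 1 panel per gene with its own axis range, by group, with circles for replicate 1, squares for replicate 2, open symbols for libraries with 0 reads and bars for group means (n = 2). Camp, Ngp, Ltf, Retnlg, S100a8 and S100a9 step up from E18.5 to P1.5 in both genotypes, while Mpo, Elane and Ly6g rest on few reads and libraries with 0 reads are drawn at the value of 0.9 read.

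In order of level per kilobase of exon, the E18.5 +/+ group ran from S100a9 (68.2 RPM per kb) and S100a8 (41.4) through Retnlg (6.45), Ngp (6.11), Ltf (2.96), Camp (2.88) and Csf3r (0.928) to Ly6g (0.0864), Mpo (0.0375) and Elane (0.0158). Of neighbors in this order, Retnlg and Ngp overlapped between libraries, as did Ltf and Camp, and Ly6g, Mpo and Elane with each other. The P1.5 +/+ group ran from S100a9 (969 RPM per kb) and S100a8 (796) through Camp (114), Retnlg (100.4), Ngp (55.7) and Ltf (20.1) to Csf3r (3.26), Ly6g (1.73), Mpo (0.361) and Elane (0.226). There neighbors overlapped for S100a9 and S100a8, for Retnlg with both Camp and Ngp, for Csf3r and Ly6g, and for Mpo and Elane. The other neighbors did not overlap, but no order was tested.

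Within genotypes, the comparison of 2 libraries with 2 asked whether the rise across birth was seen in each. In Wfdc2 GFP/GFP lungs 6 of the 10 genes were called higher at P1.5 (limma, adjusted p under 0.05), against 1.61% of all 15627 genes tested. The log2 fold changes were 5.46 for Retnlg (SE 0.77, adjusted p = 0.0242), 4.85 for S100a9 (SE 0.50, adjusted p = 0.0189), 4.79 for Camp (SE 0.63, adjusted p = 0.0210), 4.17 for S100a8 (SE 0.65, adjusted p = 0.0320), 3.68 for Ltf (SE 0.46, adjusted p = 0.0210) and 3.24 for Ngp (SE 0.36, adjusted p = 0.0189). At an unadjusted p under 0.05, 7 of 10 were higher (9.61% of all genes), and for 8 of 10, all but Ly6g and Elane, the stages did not overlap (18.4% of all genes). The 8 include Mpo, which passed the filter only through P1.5, so its place among them adds no support. The 4 that were not called were Csf3r at 1.94 (adjusted p = 0.0706), Ly6g at 1.87, Mpo at 1.81 and Elane at 1.45. With voom the calls of Camp and Retnlg were lost (adjusted p = 0.0518 for each). The call of S100a8 was lost without either of the E18.5 +/+ libraries. All 6 calls were lost when E18.5 GFP/GFP replicate 1 or either P1.5 GFP/GFP library was left out, although the 6 log2 fold changes then stayed at 2.84 or more.

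In Wfdc2 +/+ lungs 1 of the 10 genes was called higher, Ngp with a log2 fold change of 3.19 (SE 0.36, adjusted p = 0.0479), against 0.0256% of all genes. The next were Camp at 5.11 (SE 0.63, adjusted p = 0.0545), S100a9 at 3.61 (SE 0.50, adjusted p = 0.0616), S100a8 at 3.93 (SE 0.65, adjusted p = 0.0859), Ltf at 2.73 (SE 0.46, adjusted p = 0.0865) and Retnlg at 3.46 (SE 0.77, adjusted p = 0.175). Mpo was at 3.81, Ly6g at 3.37, Elane at 2.26 and Csf3r at 1.60. At an unadjusted p under 0.05, 9 of 10 were higher (6.9% of all genes), and for 9 of 10, all but Elane, the stages did not overlap (22.3% of all genes). Both counts include Mpo and Ly6g, which were under the filter value of 0.05 RPKM in every E18.5 library. They entered the test through P1.5, so their rise adds no support. The call of Ngp was lost with no filter, with median centring, with a robust prior, with only the libraries compared, with voom and with the replicate number, which is also the sex, as a block. With 1 library left out, its log2 fold change ran from 3.14 to 3.24. The others moved more, between the fits without P1.5 +/+ replicate 1 and replicate 2, with S100a8 from 2.89 to 4.96, S100a9 from 2.81 to 4.42, Camp from 4.32 to 5.90 and Retnlg from 2.18 to 4.74. Without P1.5 +/+ replicate 2, 6 of the 10 were called, but that group then has 1 library, assumed to vary like the other groups, and 2166 genes were called in all. Without any other library none of the 10 was called.

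With the 4 libraries of each stage set against each other, 7 of 10 genes were called higher, against 2.58% of all genes, and the median of the 10 log2 fold changes was 3.21, against -0.32 over all genes tested. At an unadjusted p under 0.05, 9 of 10 were higher, against 12.3% of all genes. Camp, Ngp, Ltf and S100a9 passed whichever of the 8 libraries was left out. S100a8 passed in 6 of these 8 fits, Retnlg in 4 and Csf3r in 3, and only 4 of the 10 genes passed without E18.5 GFP/GFP replicate 1 or P1.5 GFP/GFP replicate 1. Csf3r also passed in only 3 of the 8 other settings in which it was fitted. For 8 of 10 genes, all but Ly6g and Elane, the stages did not overlap over all 8 libraries, against 6.93% of all genes. Mpo, among these 8, and Mpo and Ly6g, among the 9 at the unadjusted level, passed the filter only through P1.5. Since the median gene was lower at P1.5, a fit with each library centred on its median gave larger rises, with a median of 3.68 over the 10 genes, and the same number of calls, 7.

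**Figure D3:**
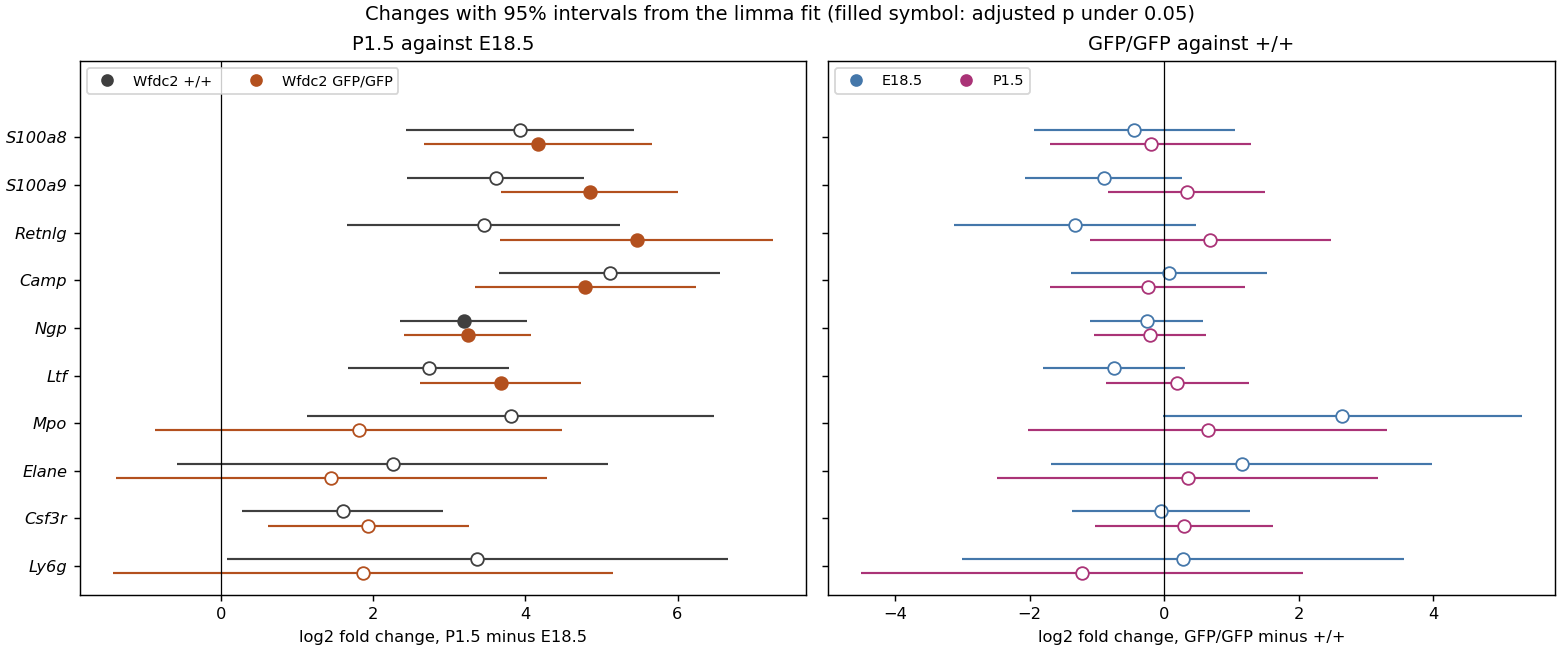
Log2 fold change of each gene with its 95% interval from the limma fit, on the left P1.5 minus E18.5 in each genotype and on the right GFP/GFP minus +/+ at each stage, with filled symbols for an adjusted p under 0.05. On the left every value is above 0, with 6 filled in GFP/GFP and 1 in +/+, and on the right all intervals include 0.

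Whether the rise differed between genotypes was tested as the interaction of stage and genotype. None of the 10 genes was called by limma, none had an unadjusted p under 0.05, and none was called by voom on the recovered reads. The largest differences were those of Retnlg, whose rise was larger in GFP/GFP by a log2 difference of 2.01 (SE 1.10, 95% interval -0.53 to 4.545, adjusted p = 0.589), and Mpo, at -2.00 (SE 1.63, interval -5.77 to 1.78, adjusted p = 0.738). For Ngp the difference was 0.055 (interval -1.13 to 1.24), and for S100a8 0.24 (interval -1.88 to 2.36). Over all 15627 genes none was called for this interaction either, with 340 higher (2.18%) and 1259 lower (8.06%) at an unadjusted p under 0.05. With 1 library left out in turn, the difference ran from 0.73 to 3.29 for Retnlg, the lowest without P1.5 +/+ replicate 2 and the highest without P1.5 +/+ replicate 1. That of Mpo ran from -3.64 to -0.35, between the fits without E18.5 +/+ replicate 2 and replicate 1.

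At P1.5 the genotypes were compared directly. None of the 10 genes was called by limma and none had an unadjusted p under 0.05, while over all genes 0.0128% were called, all lower, and 3.61% were higher and 7.33% lower at an unadjusted p under 0.05. The log2 fold changes of GFP/GFP against +/+ ran from -1.22 for Ly6g (95% interval -4.51 to 2.07) to 0.68 for Retnlg (interval -1.11 to 2.48), with a median of 0.24 against -0.20 over all genes. S100a8 was at -0.20 (interval -1.70 to 1.296), S100a9 at 0.34 (SE 0.50), Camp at -0.25 (interval -1.70 to 1.204), Ngp at -0.21 (interval -1.04 to 0.63) and Ltf at 0.20 (interval -0.86 to 1.25). For every one of the 10 the libraries of the genotypes overlapped, while they did not for 12.6% of all genes higher and 21.4% lower. The spread within the +/+ group, from 184 to 771 RPM for S100a8, was wider than the difference between the group means, 478 and 345 RPM.

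At E18.5 none of the 10 genes was called either, none had an unadjusted p under 0.05, while over all genes 0.0192% were called, all lower, and 3.78% were higher and 0.595% lower at an unadjusted p under 0.05. S100a8, S100a9, Ltf and Retnlg were lower in both GFP/GFP libraries than in both +/+ libraries, which is 4 of 10 genes against 9.55% of all genes. The log2 fold changes were -0.44 for S100a8 (interval -1.94 to 1.05), -0.90 for S100a9 (interval -2.06 to 0.27), -0.75 for Ltf (interval -1.80 to 0.31) and -1.33 for Retnlg (interval -3.12 to 0.47). The fit used 1 spread per gene for all 4 groups, so these intervals also hold the spread at P1.5. For S100a9 the SD of log2 RPKM in +/+ and GFP/GFP was 0.022 and 0.063 at E18.5, and 1.14 and 0.35 at P1.5. For Retnlg it was 0.17 and 0.92, and 1.81 and 0.091. With only the E18.5 libraries fitted, none of the 10 was called either. Mpo went the other way, with both GFP/GFP libraries above both +/+ libraries (26.4% of all genes), a log2 fold change of 2.64 (SE 1.15, interval -0.025 to 5.31, adjusted p = 0.9998) and a ratio of pooled reads of 4.20 (95% exact interval 1.91 to 10.5). In the GFP/GFP library that stood apart, the leukocyte markers summed to 48.6 RPM, against 117 to 135 RPM in the other E18.5 libraries. Without that library the log2 fold changes were -0.25 for S100a8, -0.85 for S100a9, -0.64 for Ltf, -0.67 for Retnlg and 2.65 for Mpo, with none called. Over all fits with 1 library left out, Retnlg ran from -1.98 to -0.67, the lowest without E18.5 GFP/GFP replicate 2, and Mpo from 0.996 to 4.29, between the fits without E18.5 +/+ replicate 1 and replicate 2.

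The other genes of the neutrophil program were taken from lists by role. Of the primary granule list, 2 of 4 genes were tested and none was called across birth, with Prtn3, proteinase 3, at a log2 fold change of 1.28 (adjusted p = 0.0589) and Ctsg, cathepsin G, at 1.48 (adjusted p = 0.0784). Both had an unadjusted p under 0.05. At E18.5 they stood above +/+ in GFP/GFP, like Mpo, Prtn3 by 1.26 and Ctsg by 1.64 on the log2 scale. The adjusted p was 0.9998 and the unadjusted p under 0.05 for each, against 3.78% of all genes higher at the unadjusted level. Prtn3 had 23 and 30 reads in E18.5 +/+ lungs and 74 and 54 in E18.5 GFP/GFP lungs. Ctsg was near the detection limit, with 5 and 1 reads in E18.5 +/+ lungs and 7 and 7 in E18.5 GFP/GFP lungs. Of 11 other secondary and tertiary granule genes, 3 rose, namely Lcn2, which encodes the siderophore-binding lipocalin, by 3.19 (adjusted p = 0.0327), the gelatinase Mmp9 by 2.97 (adjusted p = 0.0109) and Itgb2l by 2.80 (adjusted p = 0.0248). None of the 11 was called lower, although 1 had a log2 fold change under 0, and their median was 1.55. Lcn2 is also made by lung epithelium. In E18.5 GFP/GFP lungs all 11 of these genes had lower means than in +/+ lungs, with a median log2 fold change of -1.02, against 0.094 over all genes, and none called. Their sum was 987 and 1147 RPM in the +/+ libraries, 209 RPM in E18.5 GFP/GFP replicate 1, the library that stood apart, and 820 RPM in replicate 2. Most of each sum came from Lyz2 and Hp. Lyz2 stood at 554 and 621 RPM in +/+ and 84.9 and 397 RPM in GFP/GFP. Hp stood at 341 and 418 RPM in +/+ and 99.3 and 348 RPM in GFP/GFP. Which cells gave this RNA was not tested, and replicate 1 of GFP/GFP also had a low epithelial sum. Without that GFP/GFP library, a setting chosen after seeing the data, 9 of 11 were lower, with a median of -0.56.

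Most listed genes of mature neutrophils also rose. Of 8 tested, 6 were higher across birth, with 2.58% of all genes called higher, among them the stefins Stfa2l1 by a log2 fold change of 3.97 (adjusted p = 0.00616) and Stfa3 by 3.81 (adjusted p = 0.00745), the interferon-induced gene Ifitm6 by 2.94 (adjusted p = 0.00616) and the protease gene Asprv1 by 3.51 (adjusted p = 0.00616). The stefin genes are near-identical copies of each other, so the split of reads among them is uncertain. Of 10 receptor and adhesion genes 2 rose, the chemokine receptor Cxcr2 by 1.77 (adjusted p = 0.0245) and Trem3 by 2.46 (adjusted p = 0.0409). Of 6 genes of the NADPH oxidase, the enzyme of the respiratory burst, 1 rose, Cyba by 1.65 (adjusted p = 0.0429).

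Of 4 granulocyte transcription factors tested 1 rose, Cebpe, which is needed for secondary granules, by 3.22 (adjusted p = 0.0174). It had 4 and 9 reads in E18.5 +/+ lungs, 3 and 5 in E18.5 GFP/GFP lungs, 71 and 31 in P1.5 +/+ lungs, and 16 and 28 in P1.5 GFP/GFP lungs. Cebpa was at -0.11 (adjusted p = 0.802) and the gene of PU.1, Sfpi1, at 1.32 (adjusted p = 0.0607).

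Of the growth factor and 4 chemokines that mobilize and attract neutrophils, 1 of 5 rose, Cxcl2 by 5.01 averaged over genotypes (adjusted p = 0.00616). Cxcl2 had at most 2 reads in any E18.5 library, 8 and 6 in P1.5 +/+ lungs, and 74 and 266 in P1.5 GFP/GFP lungs. Summed over the 5 genes, P1.5 +/+ lungs had 1.03 and 1.38 RPM and P1.5 GFP/GFP lungs 5.96 and 24.8 RPM. The difference between genotypes at P1.5 did not pass for Cxcl2 (log2 fold change 3.999, SE 0.63, adjusted p = 0.152) or Cxcl1 (3.06, SE 0.77, adjusted p = 0.294). All 5 genes had higher means in P1.5 GFP/GFP lungs, with a median log2 fold change of 3.06. In the limma fit 3 of the 5 were higher at an unadjusted p under 0.05, against 3.61% of all genes. Csf3, the gene of G-CSF, had 0 and 1 reads in P1.5 +/+ lungs and 2 and 74 in P1.5 GFP/GFP lungs.

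**Figure D4:**
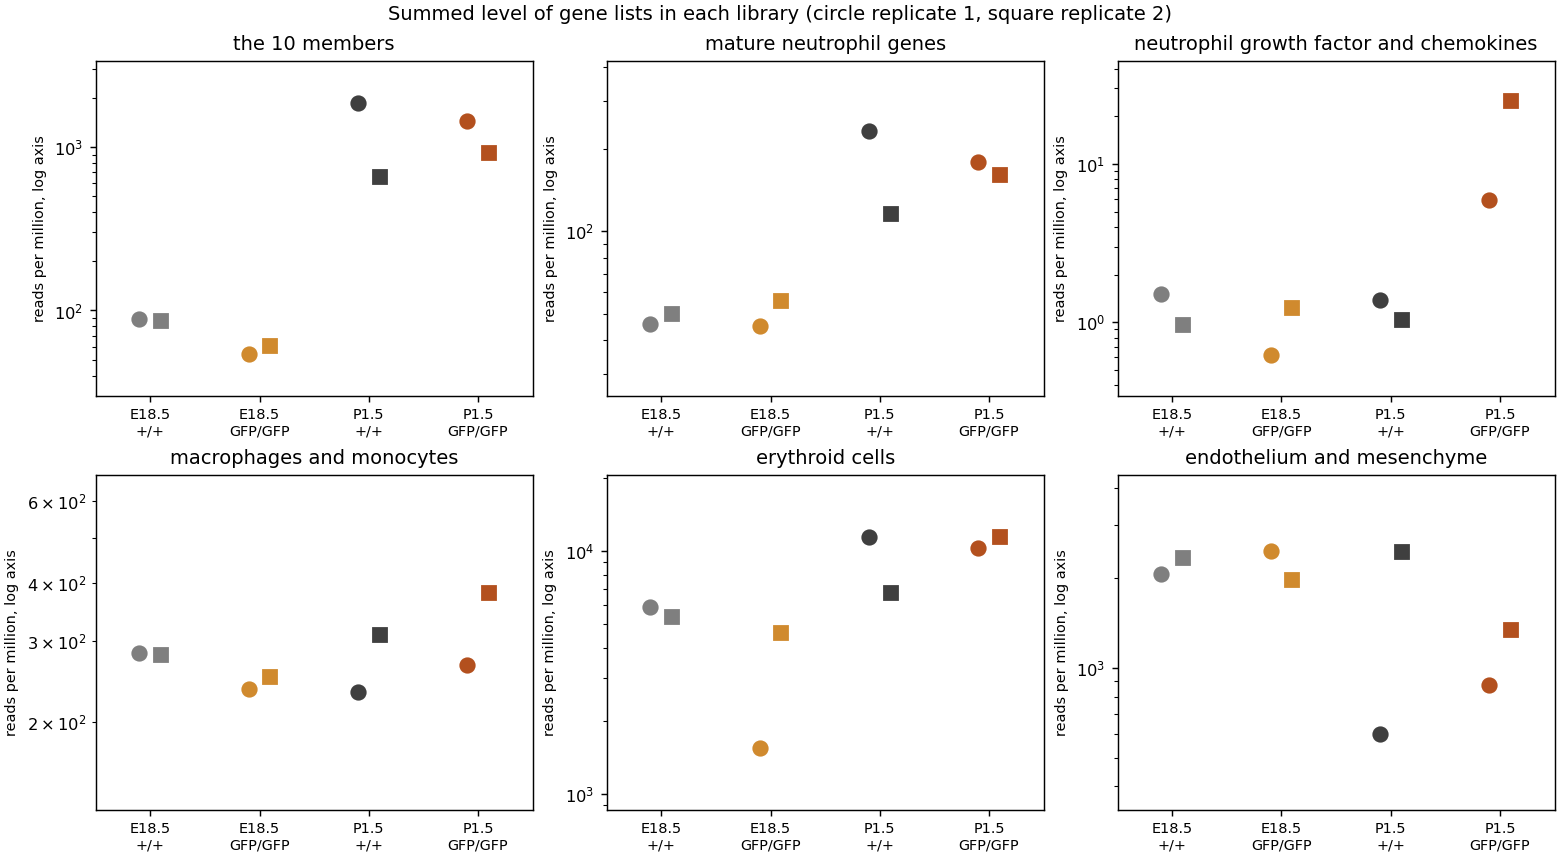
Summed RPM of 6 gene lists by group, on a log axis with its own range in each panel, with circles for replicate 1 and squares for replicate 2. The 10 members and the mature neutrophil genes are higher in all P1.5 libraries, the growth factor and chemokine list has its 2 highest values in P1.5 GFP/GFP (5.96 and 24.8 RPM), and the macrophage list stays between 233 and 380 RPM.

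Markers of other cells were set beside these changes. The macrophage and monocyte list summed to 236 to 283 RPM at E18.5 and 233 to 380 RPM at P1.5, with no marker at 0 in any library. Of its 11 genes 2 rose, Marco by 3.42 (adjusted p = 0.0128) and Cd14 by 2.47 (adjusted p = 0.0205), and 1 fell, F13a1 by a log2 fold change of -1.87 (adjusted p = 0.0326), and their median was 0.079. The defining macrophage genes Csf1r and Emr1 were at 0.18 (adjusted p = 0.621) and -0.61 (adjusted p = 0.349). The pan-leukocyte gene Ptprc was at -0.036 (adjusted p = 0.960), and Coro1a rose by 1.73 (adjusted p = 0.0459). The 4 pan-leukocyte genes summed to 48.6 to 135 RPM at E18.5, 167 and 209 RPM in P1.5 +/+ lungs, and 302 and 347 RPM in P1.5 GFP/GFP lungs.

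The erythroid list summed to 1552 to 5895 RPM at E18.5 and 6728 to 11427 RPM at P1.5, so that the stages did not overlap, as for the members, although none of its 6 genes was called. Platelet markers rose in 3 of 5 genes, Pf4 by 1.52 (adjusted p = 0.0258), Itga2b by 1.48 (adjusted p = 0.0288) and Gp9 by 1.86 (adjusted p = 0.0382). Of the lymphocyte markers, Cd3g rose by 4.40 (adjusted p = 0.0133) and Cd79a by 4.04 (adjusted p = 0.0144). Of 5 eosinophil markers 2 passed the filter and both rose, Ear6 by 4.95 (adjusted p = 0.00745) and Prg2 by 2.85 (adjusted p = 0.0386). Of the 3 not tested, the defining gene Epx had 0 reads in all 8 libraries, Ccr3 at most 10, and Ear1 11 to 18 at E18.5 and 58 to 165 at P1.5. Mast cell and basophil markers rose in 2 of 5 tested, Tpsb2 by 2.41 (adjusted p = 0.0208) and Mcpt4 by 3.68 (adjusted p = 0.0448). Of the tissue lists, 1 of 5 epithelial genes rose, Scgb1a1 by 4.29 (adjusted p = 0.0330), and 1 of 4 endothelial and mesenchymal genes fell, Pdgfra by a log2 fold change of -1.57 (adjusted p = 0.0425). The part of blood content in the rise of the neutrophil genes was not tested.

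**Figure D5:**
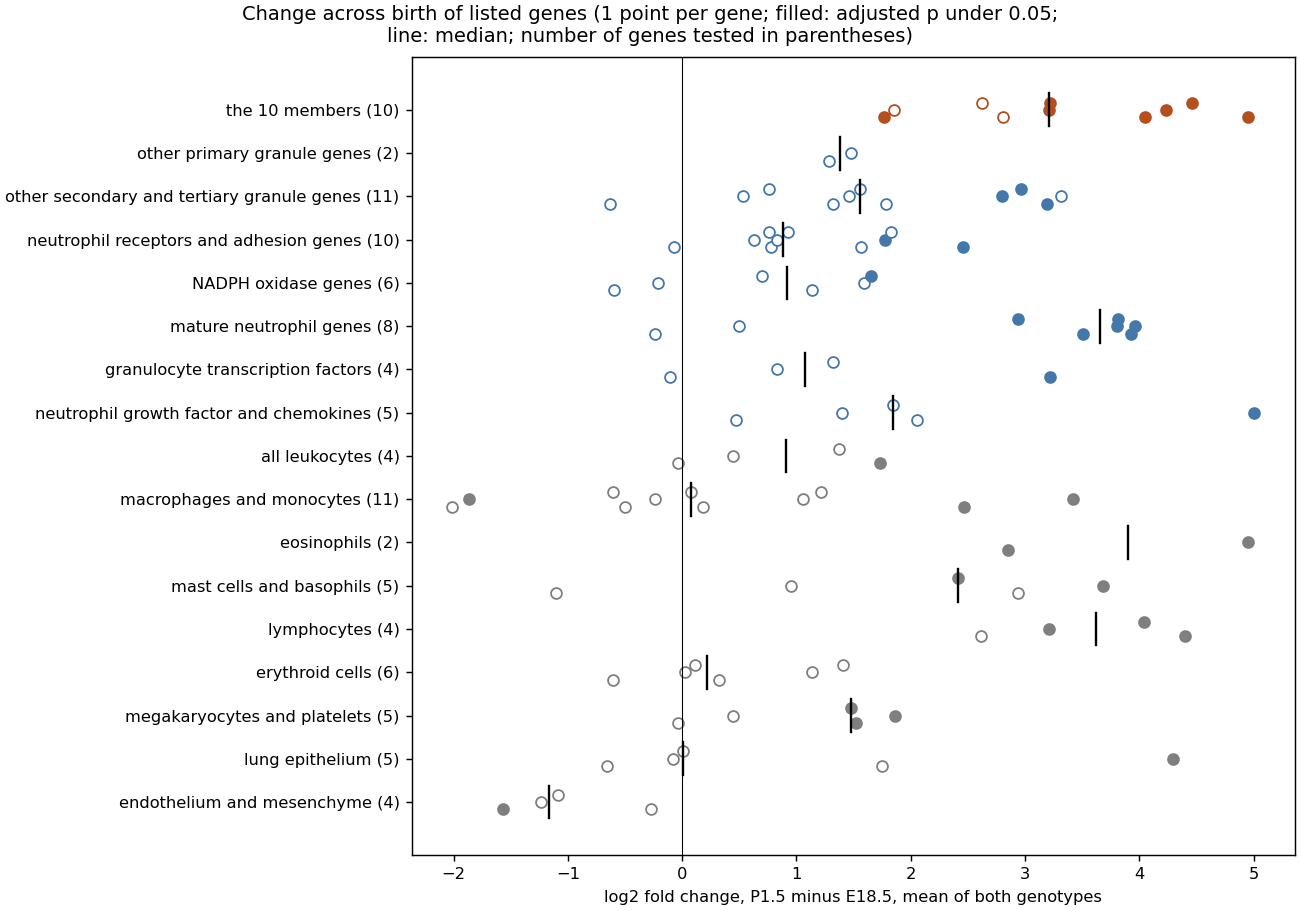
Log2 fold change across birth, averaged over genotypes, of every listed gene that was tested, 1 point per gene, 1 row per list with the number of genes in parentheses, filled where the adjusted p is under 0.05, with the list median as a line. The 10 members (median 3.21) and the mature neutrophil genes (median 3.66) have the highest medians among the neutrophil lists, and the macrophage list (median 0.079) straddles 0. The medians of the eosinophil list (3.90, of 2 genes) and the lymphocyte list (3.625, of 4 genes) lie above that of the members.

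Among the 10 genes, the log2 RPKM of S100a8 and S100a9 correlated across the 8 libraries with r = 0.99 and that of Camp and Ngp with r = 0.985, while Ly6g and Elane had r = 0.017. These values describe 8 libraries that fall into 2 stages, so a shared step at birth gives a high r. The genes outside the 10 whose pattern was most like the mean of the members, out of 14155 with at least 1 read in every library, were 1100001G20Rik (r = 0.992), Gm5483 (0.985), Stfa3 (0.982), Dusp8 (0.981), Stfa2l1 (0.981), 1810020D17Rik (0.980), 2010005H15Rik (0.980), Krt79 (0.978), Zap70 (0.978) and BC100530 (0.977). In all, 258 genes exceeded r = 0.9. Gm5483 rose across birth by a log2 fold change of 4.44, 2010005H15Rik by 5.03 and BC100530 by 4.64, while 1810020D17Rik was at 0.64. These genes were picked for following the members in the same 8 libraries, so a rise across birth was largely fixed by the choice. Among them, 1100001G20Rik (listed as Wfdc21), Stfa3 and Stfa2l1 also belong to the mature neutrophil list.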

How the data were processed

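Total RNA of whole lung was made into strand-marking libraries with the NEBNext Ultra Directional kit and sequenced on Illumina HiSeq2500 or GAIIx instruments. Per the labels and the study's methods, the authors shortened and trimmed the reads with NGS QC Toolkit and Trim Galore 0.4.0, mapped them to mm10 with TopHat2 2.1.1 and an mRNA annotation, and counted them in SeqMonk. CASAVA 1.8 is also named. The instrument of each library and the strand setting of the counting are not given in the sources used here. The deposited values are log2 RPKM that the authors computed per library. Tested on the values, the length is the gene's whole span and 0 reads were entered as 0.9 read.

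Whole reads were recovered from the steps between low values, and 99.86% to 99.96% of values came out whole within 0.02 read. The 15627 genes averaging 0.05 RPKM or more were fitted on the deposited log2 scale, with no pseudocount, with limma 3.58.1 in R 4.3.3, 1 mean per group and a trended prior over all 8 libraries. P-values are two-sided and Benjamini-Hochberg adjusted over all genes tested, with a threshold of 0.05. With 2 libraries per group an exact permutation test within a genotype cannot go below p = 0.333. The fit was tested on simulated data. Sums, intervals and figures used Python 3.11.15. The libraries are the replicates and were grouped by the genotype and stage in their labels. Promoters and exon lengths come from RefSeq (GRCm38.p6) and GENCODE, and coordinates from the deposited table.

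The members and lists were chosen with earlier results of these data known. Named beside the members are up to 4 genes of each list by adjusted p across birth (and defining genes where a result turns on them), Wfdc2, and the 10 genes most correlated with the members. Xist, Ddx3y, Epx, Ccr3, Ear1, Lyz2 and Hp were named after their values were seen. Of 113 listed symbols 2 were not found and 5 matched by an older symbol. The result of 1 listed marker is not reported here.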

Additional observations from a re-analysis of the deposited data

How the results depend on the processing

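The rise across birth averaged over genotypes called 7 of the 10 genes, 6 or 7 under all 9 other settings and 4 to 9 with 1 library left out, the fewest without E18.5 GFP/GFP replicate 1 or P1.5 GFP/GFP replicate 1. Over all genes this comparison called 803 (403 higher, 400 lower), 461 with a pseudocount of 1 RPKM, 428 with no filter, 1684 at a mean of at least 0.5 RPKM, 1842 with median centring (1278 higher, 564 lower), 1278 with quantile normalization, and 28 to 7125 with 1 library left out. In +/+ lungs, 9 genes and 1 member were called. Genes called were 16 and 17 with pseudocounts of 0.1 and 1 RPKM, 35 with no filter, 52 at 0.5 RPKM, 5 with median centring, 49 with quantile normalization, 4 with a robust prior, 0 with only the libraries compared and 0 with voom on recovered reads, and 0 to 2166 with 1 library left out. Members called there were 2 with a pseudocount of 0.1 RPKM, 5 at 0.5 RPKM, 4 with quantile normalization and 0 with no filter, median centring, a robust prior, only the libraries compared or voom, and 0 to 6 with 1 library left out. In GFP/GFP lungs, 711 genes and 6 members were called. Genes called were 237 with a pseudocount of 1 RPKM, 349 with no filter, 1279 with median centring (849 higher and 430 lower, against 252 and 459), 3036 with only the libraries compared, 129 with voom, and 0 to 4874 with 1 library left out. Members called there were 4 to 7 under the other settings and 0 to 7 with 1 library left out. The filter at 0.5 RPKM left out Csf3r, Ly6g, Mpo and Elane. The cause of these shifts was not tested.

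The genotype comparisons and the interaction called no member under any setting. Genes called at P1.5 were 2, against 11 and 5 with pseudocounts of 0.1 and 1 RPKM, 21 with no filter, 0 with median centring, quantile normalization, only the libraries compared or voom, and 0 to 24 with 1 library left out. At E18.5 they were 3, against 6 with a pseudocount of 0.1 RPKM, 22 with no filter, 1 at 0.5 RPKM, 1 with only the libraries compared, 0 with median centring, quantile normalization or voom, and 0 to 1 with 1 library left out. The interaction called 0, and 0 to 2 with 1 library left out. Uncalled log2 differences of members that changed sign were, for the interaction, S100a8 at -0.018 with quantile normalization, Mpo at 0.066 and 0.079 with pseudocounts of 0.1 and 1 RPKM, Camp at 0.090 with median centring and Ngp at -0.025 with a pseudocount of 1 RPKM. At P1.5 they were S100a9 at -0.021 with quantile normalization and Elane at -0.015 with a pseudocount of 1 RPKM, and at E18.5 Camp at -0.14 with median centring and -0.14 with quantile normalization. With 1 library left out, the interaction ran from -0.79 to 1.27 for S100a8, -0.47 to 1.14 for Csf3r, -3.73 to 0.73 for Ly6g, -2.39 to 0.78 for Elane, -1.11 to 0.47 for Camp and -0.34 to 0.45 for Ngp. The P1.5 difference ran from -1.24 to 0.83 for S100a8, -0.47 to 1.14 for S100a9, -0.52 to 1.10 for Csf3r, -3.45 to 1.01 for Ly6g, -0.54 to 1.84 for Mpo, -1.24 to 1.93 for Elane, -1.04 to 0.54 for Camp, -0.61 to 0.19 for Ngp, -0.33 to 0.72 for Ltf and -0.60 to 1.96 for Retnlg. The E18.5 difference ran from -0.40 to 0.31 for Csf3r, -0.41 to 0.98 for Ly6g, -0.26 to 2.56 for Elane, -0.37 to 0.51 for Camp and -0.57 to 0.037 for Ngp. The rise of Ly6g in GFP/GFP ran from -0.36 to 4.10.

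The labels number the replicates 1 and 2 in every group without saying that a number marks a litter or batch. The number goes with the sex of the animals. The study names its +/+ lungs as littermate controls, without saying which libraries share a litter. Over 15627 genes, the deviations of same-numbered libraries correlated between genotypes at 0.23 at E18.5 and 0.21 at P1.5, and across stages at -0.294 to 0.0776. The libraries were not treated as paired in the main fit. The replicate block gives both stages the same shift, so a pairing of genotypes within each stage was not tested. With the replicate block, 287 genes and 6 members were called across birth averaged over genotypes, 125 genes (75 higher, 50 lower) and 6 members in GFP/GFP, 0 genes and 0 members in +/+, and 0 genes at P1.5, at E18.5 and for the interaction. Depth limits Ly6g, Mpo and Elane, which had 0 reads in 1 or more libraries. The counts of Ly6g also leave out both ends of the gene.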
